A study of Mus musculus with 2 samples.

Results

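The genes described here are 10 members of the JAK-STAT pathway and of its feedback inhibitors in lung ILC2s: the kinases Jak1 and Jak3, the transcription factors Stat3, Stat5a, Stat5b and Stat6, and the inhibitors Cish, Socs1, Socs2 and Socs3. They were taken by name from the 32285 genes of the count tables, by a rule with no threshold on their values, in a list drawn up with earlier results of these data known, and all 10 were detected in both libraries. ILC2s, the innate lymphocytes that make IL-5 and IL-13 in the airways, were sorted by the authors from the lungs of WT mice and of Pac1-/- mice (labelled Pac1-KO, C57BL/6J background). The gate took live cells that lacked lineage markers and carried CD90, ST2 and Sca-1, and the cells were profiled by droplet-based scRNA-Seq of the poly-A ends of transcripts. PAC1 is a phosphatase encoded by Dusp2, lost in every cell of the Pac1-/- animal, and the study asked how its loss alters ILC2s. Cells of several mice were pooled into 1 library per genotype. By the study's methods the animals were 6 to 8 weeks old and matched for age and sex, and both males and females were used. Which sex the pooled mice were and any treatment before sorting are not given in the sources used here.

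Receptors for many cytokines that reach ILC2s, among them IL-2, IL-7, IL-9, IL-4 and TSLP, have no enzyme of their own and work through JAK kinases bound to their cytoplasmic tails. The JAKs phosphorylate STAT proteins, which pair, enter the nucleus and switch on genes, among them those of the SOCS family and Cish, whose products in turn restrain the receptors and JAKs. Jak1 serves most of these receptors and Jak3 those that carry the common gamma chain. Stat5a and Stat5b transmit IL-2, IL-7 and TSLP signals, Stat6 those of IL-4 and IL-13, and Stat3 those of the IL-6, IL-10 and IL-21 families.

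Of 10866 WT and 9495 Pac1-/- barcodes, 8394 and 7087 passed the limits of 500 genes and 10% mitochondrial RNA. They held 54579034 and 58338886 unique molecular identifiers (UMIs), each standing for 1 captured molecule, with medians of 4186.5 UMIs per WT and 5577 UMIs per Pac1-/- cell. Dusp2 had 1419 UMIs in WT and 5 in Pac1-/- cells, in keeping with the labels. The ILC2 markers Gata3 and Il1rl1 had UMIs in 88.8% and 91.9% of WT cells, and in 90.7% and 92.9% of the Pac1-/- ones. These shares rest on cells of unequal depth. With every cell thinned at random to 1500 UMIs, they were 72.3% and 73.8% in WT and 68.0% and 72.2% in Pac1-/- cells. WT cells then had the higher share of both. The libraries shared 15 of their passing barcode sequences. The summed level of 10 dissociation and stress genes was 10674 CPM (UMIs scaled to the total of the library) in WT and 13600 in Pac1-/- cells, that of 7 T cell markers 576 and 860 (carried by Trbc1 and Trbc2, while Trac, Cd3d and Cd3e were lower in Pac1-/- cells, Cd4 had 1 UMI in each library and Cd8a none), that of 5 mast cell and basophil markers 441 and 238 (mostly Kit, while Cpa3 went from 12.8 to 26.3 CPM and Mcpt8 from 9 to 105 UMIs), and that of 5 erythroid markers 76.2 and 269. Of the stress genes, Hspa1a went from 503 to 1000 CPM and Dnajb1 from 236 to 377, while Atf3 (880 and 636) and Egr1 (219 and 173) were lower in Pac1-/- cells. The 10 ILC2 markers summed to 7015 CPM in WT and 6415 in Pac1-/- cells. Among them Rora (2265 and 1686) and Klrg1 (197 and 131) were lower in Pac1-/- cells, while Il7r (812 and 1081) and Ly6a (100 and 213) were higher. The 5 B cell markers summed to 60.2 and 78.3, and the 5 epithelial markers to 54.0 and 81.7. Of the epithelial markers, Sftpc went from 15 to 675 UMIs and Sftpa1 from 5 to 160. The 4 endothelial markers summed to 42.2 and 38.9, and the NK cell, myeloid and stromal lists each to at most 7.15 CPM. The median mitochondrial share was 2.50% in the WT and 3.27% in the Pac1-/- library, and 171 and 441 barcodes exceeded the mitochondrial limit. The part of these differences in the values below was not tested. With 1 library per genotype no difference between genotypes had a replicate check and no test was made. All intervals are 95% intervals, cells are not replicates, and the intervals cover counting error only.

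All 250 bases before the start, exons included, were searched for 4 motifs: TTCNNNGAA, the palindrome bound by STAT dimers; TGACGTCA, the cAMP response element; TGANTCA, bound by AP-1; and 2 copies of GAAA spaced by 2 bases, bound by interferon regulatory factors. The first 3 read the same on both strands, the last was searched on both, and its letters were chosen after the sequences had been read. Sequences are those of RefSeq (GRCm38.p6), 5′ to 3′ on the gene's strand, with the motif in capitals, and only bases outside annotated exons are printed. Socs1 and Socs3 are shown because their levels stood apart between the genotypes, and Jak1 because it alone held the cAMP element.
Socs1: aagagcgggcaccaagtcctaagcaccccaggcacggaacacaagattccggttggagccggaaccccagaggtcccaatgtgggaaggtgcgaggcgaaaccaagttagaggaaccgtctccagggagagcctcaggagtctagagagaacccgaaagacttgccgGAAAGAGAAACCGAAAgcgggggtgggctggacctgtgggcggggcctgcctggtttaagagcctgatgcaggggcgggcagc
Socs3: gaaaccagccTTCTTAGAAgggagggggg
Jak1: gagcagcttcTGACGTCAcgggggctgg
The Socs1 stretch is chr16:10785537-10785786 (minus strand) and holds 2 overlapping matches of the paired GAAA, which begin 83 and 77 bases before the start. The Socs3 stretch, chr11:117969502-117969530 (minus strand), holds the STAT palindrome from 154 bases before the start, and the Jak1 stretch, chr4:101265307-101265334 (minus strand), the cAMP element from 101 bases before it. The starts are those of RefSeq. In GENCODE M21 the Socs3 gene reaches 117970047, so that its stretch lies within the annotated gene, outside exons, and not upstream of it. Of the 32851 promoters of the RefSeq table, 7.02% held TTCNNNGAA, 1.55% TGACGTCA, 6.75% TGANTCA and 2.98% the paired GAAA. In the 11 promoters matched to 9 of the members there was no other match, and Socs2 had no entry. The Cish window lies within annotated exons and is not printed. A match describes letters in a window and is not a measured site.

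The kinases and STATs differed widely in level, and Cish was the most abundant of the 10. UMIs of this chemistry count captured molecules whatever the length of the transcript, so levels of different genes can be set side by side to a first order. In WT cells the order was Cish (556 CPM, interval 550 to 562), Jak1 (397), Socs2 (180), Stat3 (125), Stat6 (71.9), Socs1 (55.7), Stat5b (25.6), Jak3 (19.2), Stat5a (16.9) and Socs3 (7.88). Jak3 (18.1 to 20.4) and Stat5a (15.9 to 18.1) were the only neighbours in this order whose counting intervals met. In Pac1-/- cells Socs1 (88.0) stood above Stat6 (68.4), and the order was otherwise the same. Thus the feedback inhibitors Cish and Socs2 were present at more than 10 times the level of Stat5a in both libraries, and Jak1 at more than 10 times that of Jak3.

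The share of cells with a UMI followed these levels. With every cell thinned at random to 1500 UMIs, Cish had a share of 50.8% in WT and 46.1% in Pac1-/- cells, Jak1 in 43.7% and 43.1%, Socs2 in 19.5% and 19.2%, Stat3 in 15.2% and 13.7%, and Stat6 in 9.80% and 9.46%. Socs1 reached 7.15% of WT cells (interval 6.58 to 7.75) and 11.2% of Pac1-/- cells (10.5 to 12.0). Stat5b, Jak3, Stat5a and Socs3 each stayed below Socs1, down to 1.07% and 1.63% for Socs3. Without thinning the shares were 77.6% and 78.4% for Cish, and 4.19% and 6.84% for Socs3, the lowest. Cells with B cell markers could not serve as a background of free RNA, because 72.1% of the 68 WT cells with at least 2 such markers also had a Gata3 UMI, with a median of 13777.5 UMIs against 4445.5 among the thinned cells. The 10 WT and 23 Pac1-/- cells with at least 3 B cell markers still had Gata3 in 4 and 10 cells, and could not serve either. No background of free RNA is therefore given for these shares.

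**Figure D1:**
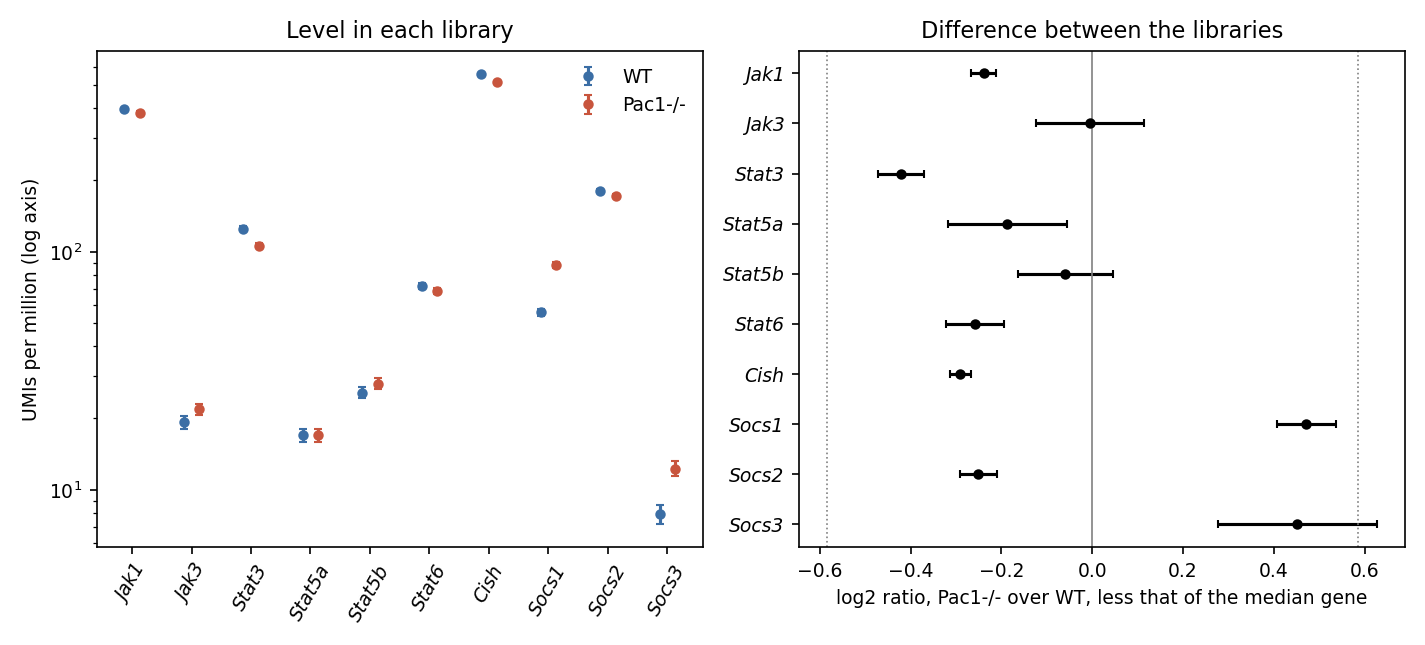
Left, CPM of each member in the WT and Pac1-/- library, on a log axis. Right, the log2 ratio of Pac1-/- over WT less that of the median gene. Points are values of 1 library or 1 ratio, bars are 95% counting intervals, and dotted lines mark 1.5-fold. Socs1 and Socs3 lie to the right of the median gene, Stat3 lies farthest to its left, and none passes 1.5-fold.

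Socs1 and Socs3 were higher in Pac1-/- than in WT ILC2s. Socs1, an inhibitor that binds JAKs directly and is best known for damping interferon and common gamma chain signals, had 55.7 CPM in WT and 88.0 in Pac1-/- cells (log2 ratio 0.66, interval 0.59 to 0.72). Socs3, the inhibitor of the IL-6 receptor family, had 7.88 and 12.3 (0.64, 0.46 to 0.82). The median of the 12427 genes with enough UMIs was itself higher by 0.19 on the log2 scale, and less this shift Socs1 stood at 0.47 (interval 0.41 to 0.54) and Socs3 at 0.45 (0.28 to 0.63), the 87.2nd and 86.0th percentile of all genes. As counted both exceeded 1.5-fold (1.58-fold and 1.56-fold), and relative to the median gene neither did (1.39-fold and 1.37-fold). Over all genes 8.22% were higher and 12.8% lower by 1.5-fold or more relative to the median gene, against 0 of the 10 members in either direction, whose median was -0.21.

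The other 8 members stood below the median gene in the Pac1-/- library. Stat3 was the lowest, with 125 CPM in WT and 106 in Pac1-/- cells, a log2 ratio of -0.23 as counted (interval -0.28 to -0.18) and -0.42 relative to the median gene. Cish, a STAT5 target that restrains the IL-2 receptor, had 556 and 518 (relative -0.29), Socs2, best known for restraining growth hormone signals, 180 and 172 (-0.25), Stat6 71.9 and 68.4 (-0.26), and Jak1 397 and 384 (-0.24). These 4 lay between -0.10 and -0.05 as counted, so that most of each relative value is the shift of the median gene. Stat5a had 16.9 and 17.0 CPM, Stat5b 25.6 and 28.0, and Jak3 19.2 and 21.8. As counted Stat5b and Jak3 were higher in Pac1-/- cells, at 0.13 and 0.18, and relative to the median gene they were at -0.06 and -0.01 with intervals that held 0. Thus Pac1-/- cells had the higher value for 5 of the 10 as counted, and for 2 once the shift of the median gene was taken off. Of these 5, Stat5a was in effect level, at 0.0004 as counted (interval -0.13 to 0.13). With the median gene at 0.19, most genes with enough UMIs were also higher in Pac1-/- cells as counted.

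The difference in Socs1 was present in every class of cells. Cells were sorted into classes by whether at least 1 Il5, Il13 or Il2 UMI was found after thinning. In cells with neither Il5 nor Il13, Socs1 had 58.4 CPM in the 4596 WT cells and 88.5 in the 4908 Pac1-/- cells, a relative log2 ratio of 0.43. In cells with Il5 alone the values were 51.6 and 86.4 (0.59), with Il13 alone 58.0 and 92.8 (0.57), with both 56.0 and 81.2 (0.45), and in Il2-positive cells 59.4 and 86.9 (0.39). The lowest Pac1-/- class was above the highest WT class. Stat3 was lower in Pac1-/- cells of every class, with relative values from -0.43 to -0.15, and the interval of the cells with Il13 alone held 0. Socs3 was at relative ratios of 0.31 to 0.60 in the other classes, with intervals that held 0 in cells with Il5 alone, with Il13 alone and with Il2, and had 5.27 CPM in WT and 15.1 in Pac1-/- cells with both cytokines, from 26 and 46 UMIs. All these classes come from 1 random thinning. In cells with both cytokines Cish had 632 and 649 CPM.

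**Figure D2:**
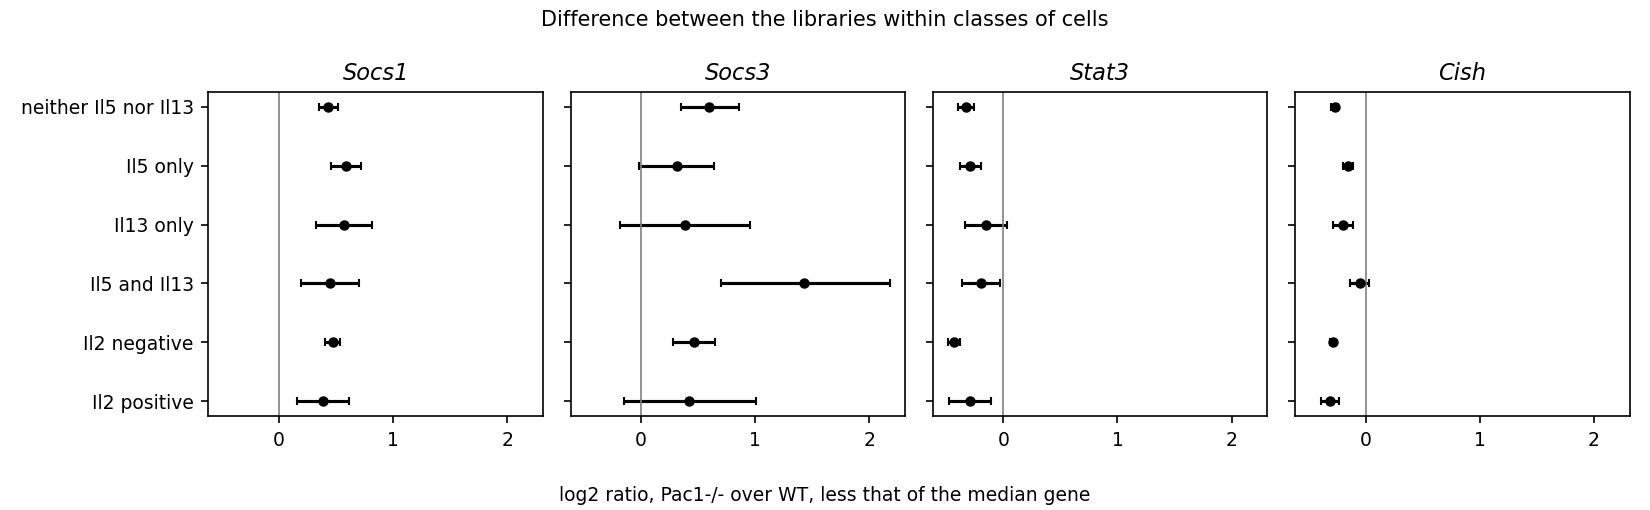
Log2 ratio of Pac1-/- over WT, less that of the median gene of the same class, for Socs1, Socs3, Stat3 and Cish in 6 classes of cells set by Il5, Il13 and Il2 UMIs. Points are ratios of 1 library to the other and bars 95% counting intervals. Socs1 lies between 0.39 and 0.59 in all 6 classes, and Stat3 lies below 0 in all.

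Stat3 and Stat5a were higher in cells that held Il5 RNA, in both genotypes. After thinning, 2519 of 7634 WT cells (33.0%) and 1298 of 6564 Pac1-/- cells (19.8%) were Il5-positive. Stat3 had 150 CPM in Il5-positive and 107 in Il5-negative WT cells, and 137 and 95.7 in Pac1-/- cells. Relative to the median gene, which was lower in the positive cells by 0.15 and 0.18, the log2 ratios were 0.64 (interval 0.57 to 0.71) and 0.70 (0.62 to 0.77). Stat5a had 19.4 and 15.3 CPM in WT and 22.4 and 15.2 in Pac1-/- cells, with relative ratios of 0.48 (0.29 to 0.67) and 0.74 (0.54 to 0.93). Stat3 passed 1.5-fold in WT, where 3.88% of all 11296 genes did so upward, and Stat3 and Stat5a passed it in Pac1-/- cells, where 5.70% of 11453 did. Over 20 repeated thinnings the ratio as counted ranged from 0.44 to 0.54 in WT and from 0.44 to 0.57 in Pac1-/- cells for Stat3, and from 0.17 to 0.45 and from 0.37 to 0.57 for Stat5a. Of all genes, 353 had a higher ratio than Stat3 in WT and 446 in Pac1-/- cells.

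The other members differed less by Il5 status. Cish had 594 and 531 CPM in Il5-positive and Il5-negative WT cells and 597 and 492 in Pac1-/- cells, relative ratios of 0.31 and 0.46. Their counting intervals (0.28 to 0.34 and 0.42 to 0.49) did not meet, and whether the effect of Il5 status differs between genotypes cannot be tested with 1 library each. Socs3 was at 0.35 in both libraries (as counted 0.18 to 0.61 in WT and -0.09 to 0.52 in Pac1-/- cells over the repeats), Jak1 at 0.24 and 0.25, Socs2 at 0.24 and 0.25, and Stat6 at 0.12 and 0.14. Jak3 was at 0.07 in both and Socs1 at 0.00 and 0.12. As counted, Socs1, Stat6 and Jak3 had lower levels in Il5-positive than in Il5-negative cells of both libraries, so that their sign rests on the scale. Stat5b, the close relative of Stat5a, was the only member below the median gene in both, at -0.17 (interval -0.33 to -0.01) and -0.09 (-0.26 to 0.09).

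**Figure D3:**
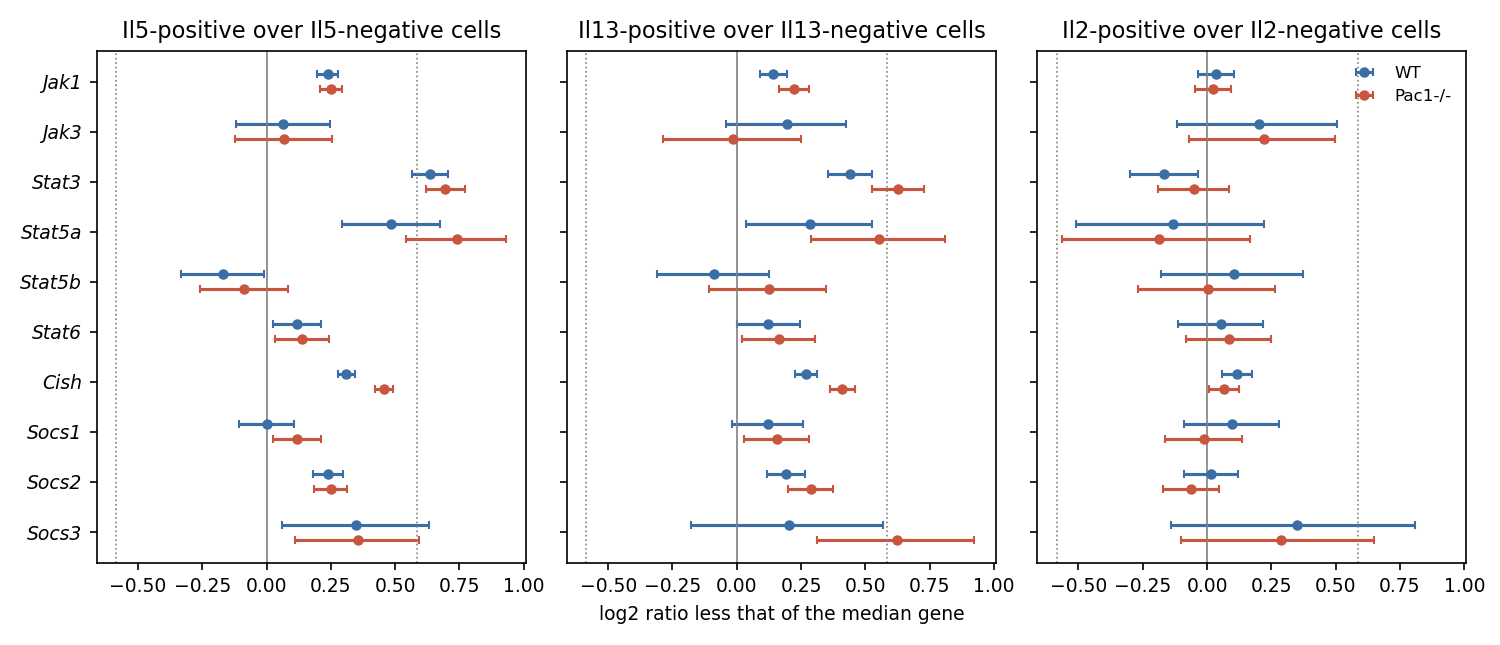
Log2 ratio of the level in positive over negative cells, less that of the median gene, for each member by Il5, Il13 and Il2 status, in WT and in Pac1-/- cells. Points are ratios within 1 library, bars 95% counting intervals, and dotted lines mark 1.5-fold. Stat3 and Stat5a lie farthest to the right for Il5, and no member passes 1.5-fold for Il2.

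The level of Stat3 was higher with each step in the number of Il5 UMIs in a thinned cell. In WT it was 107, 128, 154, 167 and 207 CPM in cells with 0, 1, 2, 3 to 5 and 6 or more Il5 UMIs, and in Pac1-/- cells 95.7, 120, 137, 159 and 195. The last step held 314 WT and 160 Pac1-/- cells. The intervals of neighbouring steps met in places, and those of the first and last (104 to 111 and 188 to 228 in WT, 92.8 to 98.7 and 172 to 221 in Pac1-/- cells) did not. The median depth of these cells was 4150, 5226, 6537.5, 6727 and 5131.5 UMIs in WT and 5620.5, 6806.5, 8435, 8412.5 and 6466.5 in Pac1-/- cells, so that it was higher along with Stat3 over the first steps and lower at the last. Stat5a had 15.3 CPM at 0 and 25.7 at 6 or more Il5 UMIs in WT, and 15.2 and 43.3 in Pac1-/- cells, where it was 20.5 at 1 Il5 UMI. Stat5b was lower at the last step than at the first, from 28.0 to 13.3 in WT and, less evenly, from 29.1 to 17.3 in Pac1-/- cells. Socs1 had 58.3 and 36.6 in WT and 88.9 and 69.3 in Pac1-/- cells at the first and last step. All these steps come from 1 random thinning.

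**Figure D4:**
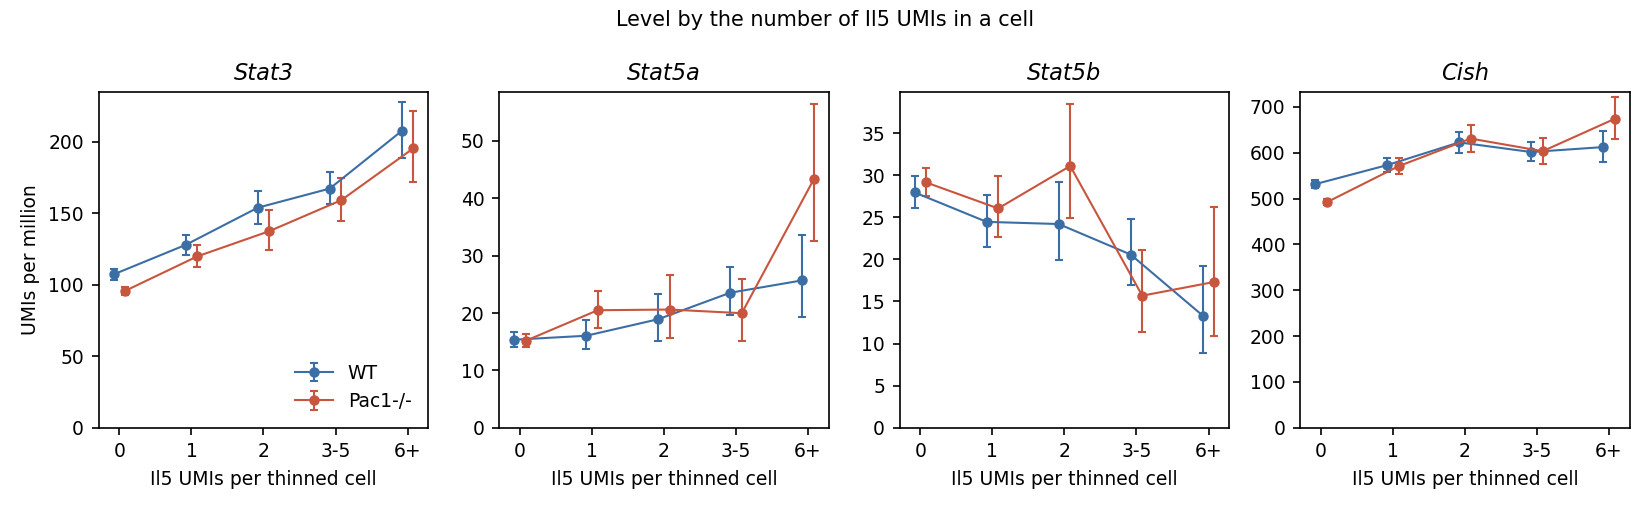
CPM of Stat3, Stat5a, Stat5b and Cish in cells with 0, 1, 2, 3 to 5 and 6 or more Il5 UMIs after thinning to 1500 UMIs. Points are sums over the cells of 1 library, lines join steps of the same library and bars are 95% counting intervals. Stat3 goes from 107 to 207 in WT and from 95.7 to 195 in Pac1-/- cells, while Stat5b ends lower than it starts.

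Several other measures moved with Il5 status. Il5-positive cells were deeper, with medians of 5624 against 4150 UMIs in WT and 7186.5 against 5620.5 in Pac1-/- cells. The stress genes summed to 9395 against 11565 CPM in WT and 11746 against 14230 in Pac1-/- cells, erythroid markers to 18.0 against 116 and 41.9 against 348, epithelial markers to 30.3 against 69.4 and 40.3 against 94.2, B cell markers to 50.6 against 66.9 and 54.2 against 86.5, and T cell markers to 549 against 599 and 817 against 878. Predicted doublets were 11.7% against 7.92% and 10.9% against 7.27%. Within strata of cell depth, combined as a Mantel-Haenszel ratio, the log2 ratio of Stat3 as counted was 0.44 in WT and 0.49 in Pac1-/- cells, against 0.49 and 0.52 without the split, and that of Stat5a 0.32 and 0.56, against 0.34 and 0.56. The part of the stress and marker genes was not tested.

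Stat3 was higher in cells that held Il13 RNA, in both libraries. Il13 was found in 1082 WT cells (14.2%) and 620 Pac1-/- cells (9.45%). Stat3 had 152 and 119 CPM in Il13-positive and Il13-negative WT cells and 140 and 102 in Pac1-/- cells, relative ratios of 0.44 (interval 0.35 to 0.53) and 0.63 (0.53 to 0.73). Cish stood at 0.27 and 0.41, and Stat5a at 0.28 (0.04 to 0.53) and 0.55 (0.29 to 0.81), with ratios as counted from -0.07 to 0.43 in WT and from 0.22 to 0.60 in Pac1-/- cells over repeated thinnings and, in Pac1-/- cells, down to 0.0073 under the alternatives. Socs3 had 8.32 and 7.70 in WT and 16.1 and 11.7 in Pac1-/- cells, relative 0.20 (-0.18 to 0.57) and 0.62 (0.31 to 0.92). Over repeated thinnings the Socs3 ratio as counted ranged from -0.54 to 0.22 in WT and from 0.32 to 1.09 in Pac1-/- cells. Stat3 and Socs3 passed 1.5-fold upward in Pac1-/- cells, where 4.97% of genes did, and no member did so in WT, where 1.91% did. In Pac1-/- cells Socs3 had 11.7 CPM at 0 Il13 UMIs, 12.4 at 1 and 10.8 at 2. It had 26.9 at 3 to 5, from 23 Socs3 UMIs. In the 44 cells with 6 or more it had 56.5 (33.5 to 89.3), from 18 Socs3 UMIs. In WT the 60 cells with 6 or more had 6.61 (0.80 to 23.9), from 2 Socs3 UMIs. These Socs3 steps come from 1 random thinning. Il13-positive cells had medians of 5150.5 against 4346 UMIs in WT and 7075.5 against 5702.5 in Pac1-/- cells. Erythroid markers summed to 22.5 against 86.4 CPM in Il13-positive and Il13-negative WT cells and 41.5 against 300 CPM in Pac1-/- cells, epithelial markers to 24.1 against 59.2 and 37.1 against 86.1, B cell markers to 47.3 against 62.7 and 55.1 against 81.3, and stress genes to 9980 against 10811 and 12456 against 13745. Their part was not tested.

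In cells with both Il5 and Il13 the ratios of Stat3 and Cish to cells with neither were larger than for either status alone. Stat3 had 173 CPM in the 563 WT cells with both and 104 in those with neither, and 161 and 93.2 in the 262 and 4908 Pac1-/- cells, relative ratios of 0.94 (0.82 to 1.05) and 1.06 (0.92 to 1.20). Stat5a stood at 0.62 (0.28 to 0.94) and 1.13 (0.78 to 1.47), and Cish at 0.48 and 0.69. Over 20 repeated thinnings the ratio as counted ranged from 0.58 to 0.78 in WT and from 0.71 to 0.91 in Pac1-/- cells for Stat3, and from 0.16 to 0.63 and from 0.46 to 0.95 for Stat5a. Past 1.5-fold were 2 members in WT (Stat3 and Stat5a, beside 7.07% of genes) and 4 in Pac1-/- cells (also Cish and Socs3, beside 10.0%). The Socs3 ratio as counted in Pac1-/- cells ranged from 0.08 to 1.30 over the repeats. Depth, stress genes and markers of other cells moved with this class too: medians were 5552 against 4094 UMIs in WT and 7326.5 against 5568 in Pac1-/- cells, the stress genes 8910 against 11609 CPM and 10560 against 14246, the erythroid markers 19.3 against 129 and 28.6 against 375, the epithelial markers 23.3 against 76.0 and 36.1 against 99.4, and the B cell markers 46.2 against 69.6 and 48.0 against 88.9. Their part was not tested. With Il5 alone Stat3 was at 0.61 and 0.65, and with Il13 alone at 0.36 and 0.53. Socs3 in WT held 161, 49 and 26 UMIs with Il5 alone, Il13 alone and both. Over the repeats its log2 ratio as counted ranged from 0.19 to 0.67, from -0.39 to 0.45 and from -0.36 to 0.57, so that no order of these classes is read from it.

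Il2 status went with small differences under the main settings. Il2 was found in 557 WT cells (7.30%) and 486 Pac1-/- cells (7.40%), and the relative ratios of the 10 members lay between -0.17 and 0.35 in WT and between -0.19 and 0.29 in Pac1-/- cells. No member passed 1.5-fold, beside 1.38% of genes upward and 2.75% downward in WT and 1.18% and 2.44% in Pac1-/- cells. Under the alternatives some ratios as counted did. The lowest were -0.75 for Stat3 in WT, -0.74 (WT) and -0.76 (Pac1-/-) for Stat5a, and -0.67 for Socs2 in Pac1-/- cells. The highest were 1.26 (WT) and 1.24 (Pac1-/-) for Socs3, and 0.60 for Jak3 in WT. Cish had 598 and 553 CPM in Il2-positive and Il2-negative WT cells and 539 and 517 in Pac1-/- cells (relative 0.12, interval 0.06 to 0.17, and 0.07, 0.01 to 0.13). Stat3, high with Il5 and Il13, had 112 and 126 in WT and 102 and 107 in Pac1-/- cells (relative -0.17 and -0.05). Socs3 had 43 and 67 UMIs in the positive cells, intervals that held 0, and over repeated thinnings log2 ratios as counted from -0.53 to 0.24 in WT and from -0.94 to 0.33 in Pac1-/- cells, so that its sign is not stable. Il2-positive cells had stress genes at 11815 against 10569 CPM in WT and 14886 against 13485 in Pac1-/- cells, higher where Il5-positive cells were lower, erythroid markers at 21.7 against 80.5 and 72.8 against 287, epithelial markers at 23.0 against 56.0 and 31.7 against 84.7, B cell markers at 52.4 against 60.9 and 68.9 against 79.1, and median depths of 4770 against 4432 and 6221 against 5769 UMIs. Their part was not tested.

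The rest of the pathway, taken from lists by function, showed where the members stood among their partners. Among 20 tested receptors that signal through JAKs, none was higher and 5 were lower by 1.5-fold or more in the Pac1-/- library relative to the median gene, beside 8.22% and 12.8% of all genes. These were Il2rb (188 and 104 CPM, relative -1.05), which pairs with the common gamma chain to signal IL-2 and IL-15, Il4ra (135 and 79.2, -0.96), Il10ra (166 and 102, -0.89), the common gamma chain Il2rg (794 and 516, -0.81) and Il2ra (572 and 405, -0.68), and the list's median was -0.10, with 9 of the 20 above the median gene. Stat4, a STAT activated by IL-12, was at -1.16 (259 and 132), and Stat2 was at 0.28. Jak2 was at -0.50 and Tyk2 at 0.30, Socs4 to Socs7 lay between -0.45 and 0.28, and 10 other inhibitors, such as the phosphatases Ptpn1 and Ptpn2, lay between -0.52 and 0.19, with none past 1.5-fold. Of 17 known STAT targets 3 were lower past 1.5-fold (Prdm1 -1.17, Pim2 -0.78 and Ccnd2 -0.72) and none was higher, beside 12.8% and 8.22% of all genes. Of 9 tested ligands Il5 (-1.01) and Lif (-0.59) were lower, and Ifng was higher from 4 and 48 UMIs.

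By Il5 status 14 of the 20 receptors in WT and 15 in Pac1-/- cells lay above the median gene. Past 1.5-fold upward were 6 of 20 receptors in each library, among them Il15ra (relative 1.02 in WT and 1.24 in Pac1-/- cells), Il2rb (0.98 and 1.34), Il4ra (0.61 in WT, and 117 against 66.2 CPM in Pac1-/- cells), Il2ra (0.61 and 0.74) and Ifngr1 (0.67 and 0.92), and none was past it downward. Of the other receptors that were lower between genotypes, Il10ra was at 0.40 and 0.70 and Il2rg at 0.30 and 0.31. Of all genes 3.88% passed it upward in WT and 5.70% in Pac1-/- cells. Jak2, which serves receptors such as those of IL-5 and interferon gamma, was at 0.70 and 0.82, and Stat4 at 0.50 and 0.59. Of the 17 STAT targets none passed it in WT, and Bcl6 (0.80), Cdkn1a (0.62) and Id2 (0.60) did in Pac1-/- cells. No other SOCS gene or listed inhibitor passed 1.5-fold. The Il2 split put no receptor, JAK or STAT target past 1.5-fold in either library. The lists and their cut were set with earlier results of these data known.

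**Figure D5:**
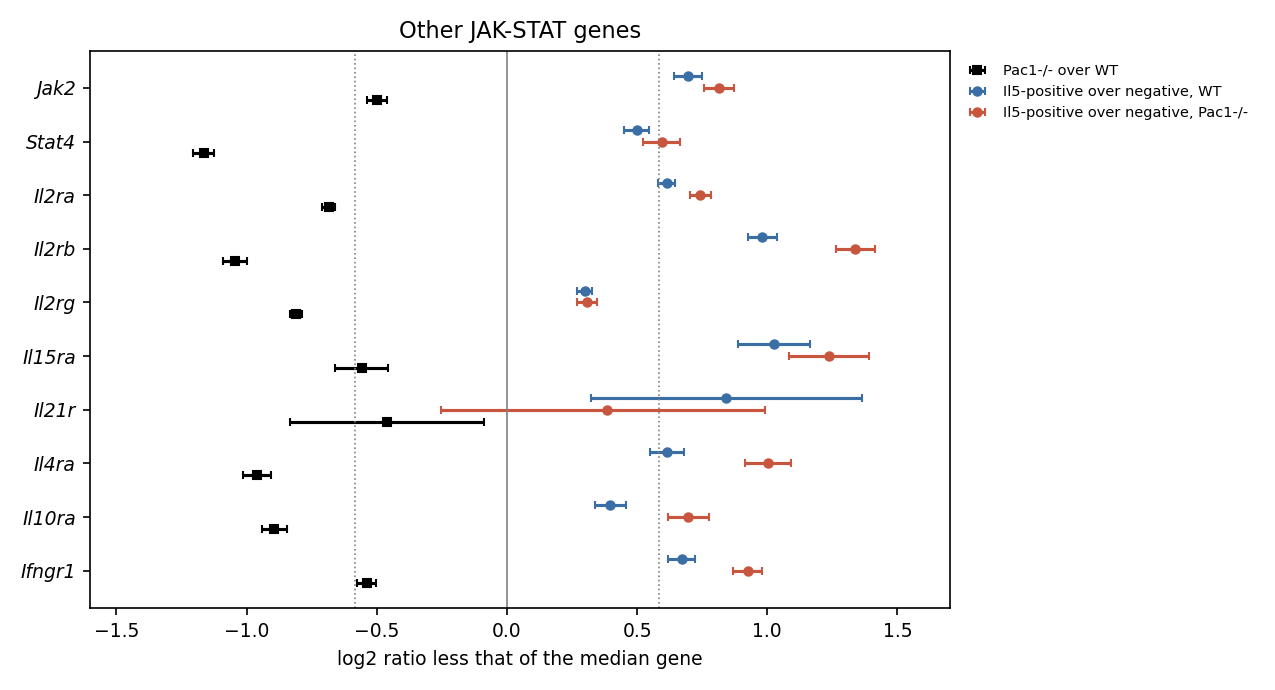
Log2 ratios less that of the median gene for Jak2, Stat4 and 8 receptors, chosen after their values were seen because they passed 1.5-fold in at least 1 of the comparisons plotted. Squares give Pac1-/- over WT and circles Il5-positive over Il5-negative cells within each library; bars are 95% counting intervals and dotted lines mark 1.5-fold. Because of that choice no pattern of the lists is read from these 10. Il2rb lies at -1.05 between genotypes and at 0.98 and 1.34 by Il5 status, and the interval of Il21r by Il5 status in Pac1-/- cells holds 0.

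The highest correlation between members over thinned cells was that of Socs2 with Cish, 0.03 in WT and 0.04 in Pac1-/- cells. Among 3208 genes found in at least 5% of thinned cells no gene reached a correlation of 0.2 with any member, and the highest was Bhlhe40 with Cish (0.14 and 0.16). Correlations this weak in sparse counts are no finding.

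Position bears on how far the counts of each member stand alone. In GRCm38 the 4 STAT genes lie in 2 groups. Stat5b (chr11:100780731-100850724, minus strand), Stat5a (chr11:100859351-100885169, plus strand) and Stat3 (chr11:100885098-100939540, minus strand) are neighbours, with 8626 bases between Stat5b and Stat5a. The ends of Stat5a and Stat3, where this chemistry reads, overlap by 72 bases on opposite strands, and the sources used here do not state how strand was used in counting. Stat6 (chr10:127642986-127660957, plus strand) overlaps Nab2 on the other strand, and Cish (chr9:107296026-107302784, plus strand) overlaps Gm17040 and Gm17041 likewise. Jak1 (chr4:101152367-101265282, minus strand) and Jak3 (chr8:71676296-71690575, plus strand) each share bases with a gene on their own strand, Gm12785 and Insl3. Socs1 (chr16:10782240-10785536), Socs2 (chr10:95385362-95417180) and Socs3 (chr11:117966079-117970047) are on the minus strand. All 10 are annotated as protein coding.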

How the data were processed

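Lung ILC2s of 1 WT and 1 Pac1-/- pool were measured. The deposited values are raw UMI counts per gene and barcode, made by the authors with Cell Ranger (version 6.1.1 in the submitters' processing notes, 4.0.0 in the file header) against mm10; the annotation release is not given in the sources used here. UMIs remove PCR copies. No normalization had been applied, and no values of single samples were left unmapped.

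Barcodes with at least 500 genes and at most 10% mitochondrial UMIs were kept, without doublet removal. UMIs were summed over cells and divided by the total of the library to give CPM. Levels carry exact Poisson, shares Clopper-Pearson and ratios exact conditional binomial 95% intervals. For status each cell was thinned to 1500 UMIs, the largest of the depths tried that kept 90% of cells, which left out 760 WT and 523 Pac1-/- cells; levels used all UMIs of the cells, and 20 repeated thinnings gave the range over draws. Genes with at least 50 UMIs, and at least 10 expected in the smaller group, entered the background, and ratios are given relative to their median. Genes of other lists were named as past 1.5-fold only where their interval also left out the median gene, at most 6 per list. Some genes that did not pass, such as Stat2 and Tyk2 between genotypes, are also given with their values. The members and lists were chosen with earlier results of these data known. A further gene of these lists is not reported here. Promoters came from RefSeq and positions from GENCODE M21. Scripts were tested on simulated counts.

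Alternatives covered the scale, the cell filter, predicted doublets (730 WT and 538 Pac1-/- cells, by Scrublet at 0.8% per 1000 barcodes), markers of other cell types, thinning depth and the definition of status. Those added after seeing the data were strata of cell depth, other-type markers without the T cell list, and B cells by 3 markers. Python 3.11.15, numpy 2.4.6, scipy 1.17.1, pandas 2.3.3 and scanpy 1.11.5 were used.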

Additional observations from a re-analysis of the deposited data

Results flagged for a closer look

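The members were also found in barcodes outside the comparisons. The 2472 WT barcodes that failed the filter on genes or mitochondrial RNA held 2110 UMIs of the 10 members among 1603031, a summed level of 1316 CPM, against 1455 inside the filter. The 2408 Pac1-/- barcodes held 2432 among 1944399, or 1251 CPM, against 1415. Both levels describe RNA of barcodes outside the filter, and no test was made of them. Within this RNA Socs1 was at 51.2 CPM (interval 40.7 to 63.5) in WT and 81.8 (69.6 to 95.5) in Pac1-/- barcodes. Socs3 was at 8.73 CPM (4.77 to 14.7) in WT and 6.69 (3.56 to 11.4) in Pac1-/- barcodes, from 14 and 13 UMIs, the other direction than inside the filter, with intervals that met.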

How the results depend on the processing

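The 70 log2 ratios of the members were recomputed under 760 alternative values on the scale as counted. The sign was the other in 94 of these, and 13 ratios changed sign on the scale relative to the median gene. Stat3, Stat5a and Cish stayed higher in Il5-positive cells of both libraries in all 22 alternatives each, with log2 ratios of 0.44 to 0.74 (WT) and 0.42 to 0.93 (Pac1-/-) for Stat3, 0.29 to 0.62 and 0.47 to 1.24 for Stat5a, and 0.11 to 0.30 and 0.21 to 0.42 for Cish. Between genotypes Socs1 ranged from 0.65 to 0.75, Socs3 from 0.54 to 0.75 and Stat3 from -0.25 to -0.16.

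Of these 13, those whose interval as counted left out 0 were Stat5b (-0.059) and Jak3 (-0.0057) between genotypes and Socs1 by Il5 in WT (0.00052), with the relative value in brackets. The others lay within their counting interval of 0. Socs2 between genotypes was 0.024 with the mean of each cell's level, 0.043 without cells over 2 times the median UMIs and 0.0073 with thinned UMIs, where Stat5b was -0.082. Cish by Il2 in WT was -0.022 with at least 2 Il2 UMIs. The cause was not tested. Of the 10 members the number higher in Pac1-/- cells was 5 on the counted scale and 2 relative to the median gene. The 5 include Stat5a, whose interval as counted held 0. In Il2-positive WT cells 8 were higher, and 5 with thinning to 1000 UMIs, thinning to 3000 UMIs or status in unthinned counts. The other counts of members stayed within 1.5 times.

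No paired analysis was possible because each genotype has 1 library. Depth limits Socs3 (430 and 716 UMIs) and Stat5a (925 and 989) most.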
